A study of Mus musculus with 6 samples.

Results

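The genes described here are 10 factors of the AP-1 and immediate early group, taken by symbol from 48368 symbols in the count tables: Fos, Fosb, Fosl1, Fosl2, Jun, Junb, Jund, Egr1, Egr3 and Ier2. All 10 passed the filter on low counts, among 17584 genes tested. They were measured in 6 RNA-seq libraries of primary cancer-associated fibroblasts (CAFs, the connective tissue cells of a tumour), cultured from mammary tumours of MMTV-PyMT mice. In these mice the MMTV promoter, active in mammary epithelium, drives polyomavirus middle T. The 3 HET libraries were labelled Hic-5+/- and the 3 KO libraries Hic-5-/-, so the controls also carry 1 targeted allele. Hic-5, encoded by Tgfb1i1, is a LIM-domain adaptor of focal adhesions. The cells grew in medium with serum, and the sources used here give neither the passage, nor the time from the last feeding to harvest, nor the age of the mice. The 3 libraries of a group are called technical triplicates in the design text, yet their titles bear different numbers, and HET replicate 3 and KO replicate 3 bear the same one. P-values therefore measure the spread between these libraries, which may be technical.

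AP-1 is a dimer of basic leucine zipper proteins that binds a short palindrome in enhancers and promoters. Jun proteins pair with each other or with Fos proteins, while Fos proteins need a Jun partner. Fos, Fosb, Egr1, Egr3 and Ier2 are immediate early genes: serum, growth factors and cell attachment switch them on within minutes through the ERK and SRF pathways, and their transcripts decay quickly. Fosl1 and Fosl2 lack the strong activation domain of Fos and last longer in growing cells. Jund is the steady Jun protein of resting cells, and Junb can oppose Jun.

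Promoter sequence was matched for 6 members in RefSeq (GRCm38.p6): Fos, Fosb, Fosl2, Jun, Junb and Jund. Fosl1, Egr1, Egr3 and Ier2 were not matched. Windows of 300 bases, from 250 before to 50 after the RefSeq start, were searched on both strands for 4 elements through which these genes and their products are known to act. These were the cyclic AMP response element TGACGTCA (in 1.79% of all 32851 windows), the AP-1 site TGACTCA (5.2%), the CArG box of serum response (1.63%) and the Egr site GCGTGGGCG (0.612%). The RefSeq start is not always the GENCODE gene start given with the values below: the Fosl2 window lies inside the GENCODE gene, and the Jund window ends before the GENCODE start of Jund. None of the 6 windows held any of the 4, which says only that these letters are not in these windows. After this was seen, the half-site TGACG, which also lies within TGACGTCA (20.8% of windows), and the variant TGACATCA (3.62%) were searched. The 4 windows with a match are shown, since they belong to inducible genes of the Fos and Jun families, each as 150 bases before the outer of its RefSeq and GENCODE starts, 5′ to 3′ on the gene's strand, with the matches in capitals. Fos is at chr12:85473740-85473889 on the plus strand, Fosb at chr7:19310052-19310201, Jun at chr4:95052223-95052372 and Junb at chr8:84978749-84978898, these 3 on the minus strand.
Fos: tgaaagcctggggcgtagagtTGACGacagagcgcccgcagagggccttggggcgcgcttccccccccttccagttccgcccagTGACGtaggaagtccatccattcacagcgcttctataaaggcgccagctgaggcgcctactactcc
Fosb: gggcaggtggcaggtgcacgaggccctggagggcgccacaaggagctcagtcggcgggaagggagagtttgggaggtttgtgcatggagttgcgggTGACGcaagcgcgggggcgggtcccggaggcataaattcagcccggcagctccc
Jun: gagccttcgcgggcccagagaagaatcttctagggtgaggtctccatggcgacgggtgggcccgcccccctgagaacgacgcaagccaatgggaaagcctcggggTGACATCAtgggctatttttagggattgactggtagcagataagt
Junb: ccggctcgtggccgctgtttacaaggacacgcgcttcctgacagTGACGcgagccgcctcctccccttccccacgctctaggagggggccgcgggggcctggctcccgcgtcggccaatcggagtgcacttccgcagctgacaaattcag
The Fos window held 2 half-sites, and the Jun window held the variant and no half-site. These matches are a description of the letters, not of binding.

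Library totals ran from 24954273 to 42470598 estimated counts. Levels are CPM, the counts relative to the library total after TMM scaling, and 3 counts correspond to 0.0682 to 0.119 CPM. In the following, the 3 values of a group are always in the order of replicates 1, 2 and 3. Tgfb1i1 itself stood at 223, 348 and 125 CPM in HET and at 90.4, 0.232 and 156 CPM in KO, so only KO replicate 2 was nearly without its transcript. KO replicate 2 also nearly lacked Col1a2, a defining fibroblast gene (0.491 CPM, against 577 to 5109 CPM elsewhere), and held the highest level of 9 of the 12 epithelial markers. There these 9 ran from 0.2583 CPM (Krt5) to 37.89 CPM (Krt18). The epithelial marker Krt19 went the other way. It was lowest in KO replicate 2, at 0.5424 CPM, against 12.97 to 64.11 CPM elsewhere. Among fibroblast markers, Col1a1, Dcn, Thy1, Lum and S100a4 were also lowest in KO replicate 2, at 2.56, 0.775, 0.982, 0.0258 and 106 CPM. Vim (2870 CPM), Col5a1 (149 CPM) and Col3a1 (21.8 CPM) were not lowest there but lay above KO replicate 1 (2020, 129 and 9.44 CPM). Col3a1 was still below every HET library (95.4 to 1873 CPM). Pdgfra and Pdgfrb, though lowest in KO replicate 2, still reached 124 and 138 CPM. Summed fibroblast markers were lower in every KO library (3413 to 7409 CPM) than in any HET library (9754 to 19320 CPM). Abundant genes weigh most in this sum: Col1a1 and Col1a2 stood at 4948 and 5109 CPM in HET replicate 1. Of the 11 tested, 10 had a fitted change below 0, and 2 of these an unadjusted edgeR p under 0.05. Only 3 of the 11 were lower in KO without overlap, where 7.42% of all genes tested were. Leukocyte markers, mostly Lyz2, summed to 1425 CPM in HET replicate 2 and to 1144 CPM in KO replicate 3, against 17.4 to 50.7 CPM elsewhere. HET replicate 2 and KO replicate 3 also had the most Ptprc, a general leukocyte marker (8.19 and 5.67 CPM). Elsewhere Ptprc was at most 0.0455 CPM, with 0 in HET replicate 1 and KO replicate 2. Ptprc was among 5 leukocyte markers that exceeded 1 CPM only in HET replicate 2 and KO replicate 3. The sum of proliferation markers ranged over 198 to 1274 CPM among HET libraries and over 807 to 3318 CPM among those of KO, and all 13 had a fitted change above 0. The part of these differences in the values below was not tested, beyond the values given without single libraries. In such cultures, fewer cells of a type and less RNA per cell cannot be told apart.

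No member passed edgeR's adjusted threshold of 0.05 between KO and HET, where 0.0% of all genes did. Adjusted p ran from 0.579 to 0.948 over the members. At an unadjusted p under 0.05 stood 3 members, Fosl1 and Ier2 higher and Jund lower in KO, where 8.59% of all genes tested did. DESeq2 placed none of the 10 past its adjusted threshold, against 1.05% of all genes it gave an adjusted p. Of the 10 fitted changes, 5 were above 0 and 5 below, with a median of 0.24 (log2), beside 0.01 over all genes tested. The count above 0 ran from 5 to 8 of 10 over the alternatives, with 8 on both log2 RPKM scales, since the signs of Fosl2, Junb and Egr3 turned. The fitted changes of Fosl1, Fosb, Jun, Egr1 and Ier2 were above 0 and those of Fos and Jund below under all alternatives run.

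**Figure D1:**
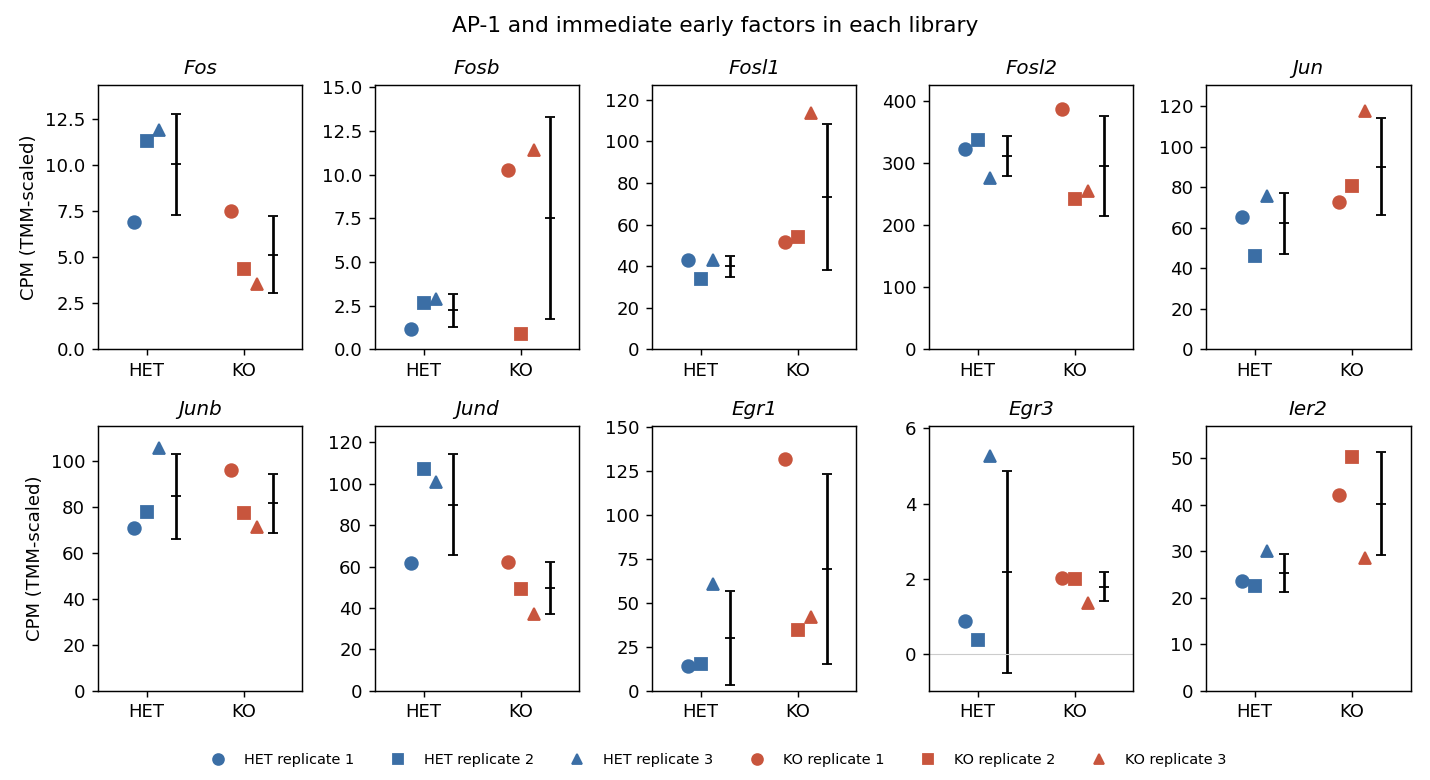
Level of each of the 10 genes in CPM (y axis, linear, a scale of its own per gene) in the 3 HET (blue) and 3 KO (red) libraries, with the symbol shape giving the replicate and the black bar the mean and SD. Only for Fosl1 do all KO points lie above all HET points, and KO replicate 3, at 113 CPM, is the highest of them.

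Fosl1 encodes Fra-1, the Fos protein tied to invasive mesenchymal cells (chromosome 19, 5447547 to 5455946, GRCm38). It stood at 43.0, 33.9 and 42.9 CPM in HET and at 51.6, 54.2 and 113 CPM in KO. All KO libraries lay above all HET libraries, and KO replicate 3 was more than 2 times any other library. Fosl1 was the only member without overlap, where 15.5% of all genes tested had none, 8.1% higher and 7.42% lower in KO. The means were 39.9 ± 5.19 and 73.1 ± 35.01 CPM (SD, n = 3 each), a log2 fold change of 0.87 ± 0.35 (SE, edgeR adjusted p = 0.579). Without KO replicate 3 the change was 0.41 ± 0.21. A gene on the other strand, Ccdc85b, overlaps Fosl1 by 2767 bases and stood at 9.04 to 30.8 CPM, and the sources used here do not say whether the counting used strand.

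Fos, the founding immediate early gene and partner of Jun (chromosome 12, 85473890 to 85477273), stood at 6.91, 11.3 and 11.9 CPM in HET and at 7.53, 4.34 and 3.57 CPM in KO. KO replicates 2 and 3 lay under every HET library, but KO replicate 1 lay above HET replicate 1. The means were 10.0 ± 2.73 and 5.15 ± 2.10 CPM, with a log2 fold change of -0.96 ± 0.41 (edgeR adjusted p = 0.583). These levels rest on 90 to 398 counts per library. Fosl1 and Fos, from one family, thus had fitted changes of opposite sign, a difference between genes that was not itself tested.

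Fosb, the other inducible Fos gene (chromosome 7, 19302696 to 19310051), divided the KO libraries. It stood at 1.17, 2.67 and 2.90 CPM in HET, at 10.3 and 11.4 CPM in KO replicates 1 and 3, and at 0.878 CPM in KO replicate 2, the lowest of all 6. The fold from the lowest to the highest library was 12.96. The log2 fold change was 1.74 ± 0.91 (edgeR adjusted p = 0.596), and without KO replicate 2 it was 2.26 ± 0.48, with an unadjusted edgeR p of 0.0042 and an adjusted p of 0.950. Fosb then did not overlap between the groups, like Fosl1, both higher in KO, where 10.6% of all genes were higher and 10.1% lower without overlap. KO replicate 2, low in Fosb, is the library nearly without Tgfb1i1 and Col1a2. KO replicates 1 and 3, high in Fosb, held Tgfb1i1 transcript.

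Fosl2, which encodes Fra-2 (chromosome 5, 32135801 to 32157842), had the most counts of the group and one of its narrowest ranges. It stood at 323, 336 and 276 CPM in HET and at 388, 242 and 255 CPM in KO. The groups overlapped, with KO holding both the highest and the lowest library. The log2 fold change was -0.08 ± 0.26 (edgeR adjusted p = 0.929), and its sign turned under some settings. The direction of Fosl2 was thus not resolved, and no other member passed the adjusted threshold either.

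Jun, the principal partner in AP-1 (chromosome 4, 95049034 to 95052222), stood at 65.2, 45.9 and 75.6 CPM in HET and at 72.6, 80.8 and 117 CPM in KO. KO replicate 1 lay just under HET replicate 3, and the other KO libraries lay above every HET library. The means were 62.3 ± 15.1 and 90.3 ± 23.9 CPM, with a log2 fold change of 0.54 ± 0.28 (edgeR adjusted p = 0.596). The groups of Jun did not overlap when counts were scaled only by library total, where 17.3% of all genes did not. The same held in the deposited RPKM, where 17.1% of all genes did not overlap. In RPKM the groups of Jun nearly touched, at 19.25 in KO replicate 1 against 19.23 in HET replicate 3. The highest library was again KO replicate 3, and without it the change was 0.31 ± 0.26.

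Jund, the steady Jun gene that slows growth in fibroblasts (chromosome 8, 70698949 to 70700616), ran the other way. It stood at 61.9, 107 and 101 CPM in HET and at 62.1, 49.2 and 37.1 CPM in KO. HET replicate 1 and KO replicate 1 were level at about 62 CPM, and the other HET libraries lay above every KO library. The means were 89.9 ± 24.5 and 49.5 ± 12.5 CPM, with a log2 fold change of -0.86 ± 0.30 (edgeR adjusted p = 0.579), the smallest unadjusted p among the members at 0.0265. Junb, on the same chromosome (84974484 to 84978718), stood at 70.6, 77.6 and 105 CPM in HET and at 95.8, 77.5 and 71.3 CPM in KO. Its groups overlapped almost wholly, with a log2 fold change of -0.05 ± 0.23 (edgeR adjusted p = 0.948). Prdx2, at 226 to 345 CPM, overlaps the end of Junb by 351 bases on the other strand.

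**Figure D2:**
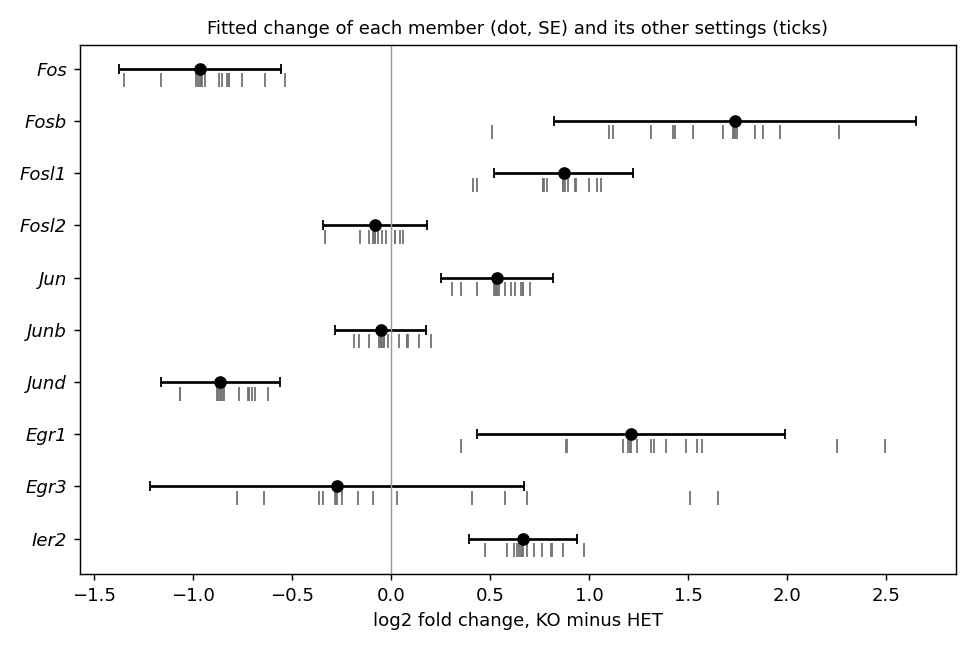
Fitted log2 fold change of each gene, KO minus HET (x axis; black dot with its SE), with grey ticks for the same value under each other scaling, filter, test or left-out library. The ticks of Fosl1, Jun, Fosb, Egr1 and Ier2 all lie above 0 and those of Fos and Jund all below, while those of Fosl2, Junb and Egr3 lie on both sides.

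Egr1, a zinc finger factor of the early response to serum and wounding (chromosome 18, 34859823 to 34864984), had an over 9-fold range. It stood at 14.2, 15.0 and 60.7 CPM in HET and at 132, 34.7 and 41.8 CPM in KO. HET replicate 3 lay above KO replicates 2 and 3, and KO replicate 1 was more than 2 times any other library. The log2 fold change of 1.21 ± 0.78 (edgeR adjusted p = 0.641) therefore rested on single libraries: it was 0.35 without KO replicate 1, and 2.25 without HET replicate 3. Egr3, its close relative (chromosome 14, 70077203 to 70082614), stood at 0.886, 0.370 and 5.26 CPM in HET and at 2.02, 1.99 and 1.35 CPM in KO. It was highest in HET replicate 3, as 134 of its counts came from that library against 13 to 89 in the others. Its log2 fold change was -0.27 ± 0.94 (edgeR adjusted p = 0.932), and 1.51 without HET replicate 3.

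Ier2, a small nuclear protein of the early response (chromosome 8, 84661331 to 84662852), stood at 23.6, 22.5 and 30.0 CPM in HET and at 42, 50.3 and 28.4 CPM in KO. KO replicates 1 and 2 lay above every HET library, and KO replicate 3 lay just under HET replicate 3. The log2 fold change was 0.67 ± 0.27 (edgeR adjusted p = 0.581). Without KO replicate 3 it was 0.87 ± 0.24, and without KO replicate 2 it was 0.48 ± 0.27.

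The libraries of the shared title number give a comparison of their own, although the labels do not say what the number marks. KO replicate 3 lay above HET replicate 3 in 3 members, Fosb, Fosl1 and Jun, and below it in 7. Egr1 and Ier2, higher in KO on average, were thus lower in KO within this pair, at 41.8 against 60.7 CPM and 28.4 against 30.0 CPM. Without both of these libraries, Fosl1, Jun, Egr1, Egr3 and Ier2 did not overlap between the groups, all higher in KO, where 43.8% of all genes did not overlap in either direction with 2 libraries a group. The changes of Egr1 and Fosl1 were then 2.49 ± 0.72 and 0.43 ± 0.29.

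No single library set the whole group. HET replicate 3 and KO replicate 3 were each highest in 3 members, and HET replicate 2 was lowest in 4. The median deviation of the members from their 6-library mean was -0.25, -0.36 and 0.20 (log2) in HET and 0.30, -0.08 and -0.13 in KO. HET replicate 3 and KO replicate 1 thus stood high and HET replicates 1 and 2 low, an order that does not follow the genotype label. The range over the 6 libraries was widest in Egr3 (3.63, log2), Fosb (3.61) and Egr1 (3.20), beside a median of 1.26 over all genes tested. Junb (0.58) and Fosl2 (0.68) had narrower ranges than that median.

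Levels of different genes were compared only per length. The deposited RPKM divides by the whole gene: the length implied by count and RPKM was proportional to the gene's genomic span in 94.5% of 13534 genes, within 5%, and to the exon length in 3.5%. By mean RPKM over the 6 libraries the order was Jund (33.7), Jun (19.6), Ier2 (17.9), Junb (16.01), Fosl2 (11.2), Egr1 (8.01), Fosl1 (5.63), Fos (1.81), Egr3 (0.602) and Fosb (0.545). Per kilobase of exons (GENCODE M21), chosen after this was seen, the order of mean CPM was Jund (41.8), Junb (36.1), Fosl2 (31.3), Fosl1 (27.8), Jun (23.9), Ier2 (21.6), Egr1 (11.1), Fos (3.23), Fosb (0.781) and Egr3 (0.449). Fosl1 and Fosl2, with long introns, moved up, as did Junb, and Fosb passed Egr3. The sources used here do not say whether reads in introns were counted, so both orders are given. On both scales Fos, Fosb and Egr3 were the lowest. The libraries of neighbours such as Jun, Ier2 and Junb overlapped in RPKM, at 11 to 30.2, 11.3 to 29.4 and 12.7 to 20.2.

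Within the Fos family, the long-lived members made up most of the transcript in every library. Fosl2 held 66.4%, 66.1% and 57.9% of the summed RPKM in HET and 64.0%, 57.9% and 41.4% in KO. Fosl1 held 23.6%, 17.8% and 24.1% in HET and 22.8%, 34.7% and 49.2% in KO, and overtook Fosl2 only in KO replicate 3. Fos held 9.25%, 14.5% and 16.2% in HET and 8.10%, 6.77% and 3.77% in KO, so that its share was lower in all KO libraries. Fosb held at most 5.53%. Per kilobase of exons the mean share of Fosl1 was 42.6% in place of 28.7%, and Fosl1 overtook Fosl2 in KO replicates 2 and 3.

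In the Jun family, Jund held 50.0%, 66.2% and 55.4% of the summed RPKM in HET and 45.1%, 40.4% and 29.3% in KO. Its share was thus lower in every KO library than in any HET library, on this scale and per kilobase of exons. Jun held 27.6%, 14.9% and 21.7% in HET and 27.6%, 34.6% and 48.5% in KO, and on the RPKM scale replaced Jund as the largest member only in KO replicate 3. Junb held 18.9% to 27.4%. Per kilobase of exons Junb held 30.0% to 41.0%, with a mean of 35.6% in place of 23.1%, and was the largest member in KO replicates 1 and 2, at 41.0% and 38.0% against 36.6% and 33.4% for Jund. These shares use the same libraries and values as the levels above and are no separate evidence.

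**Figure D3:**
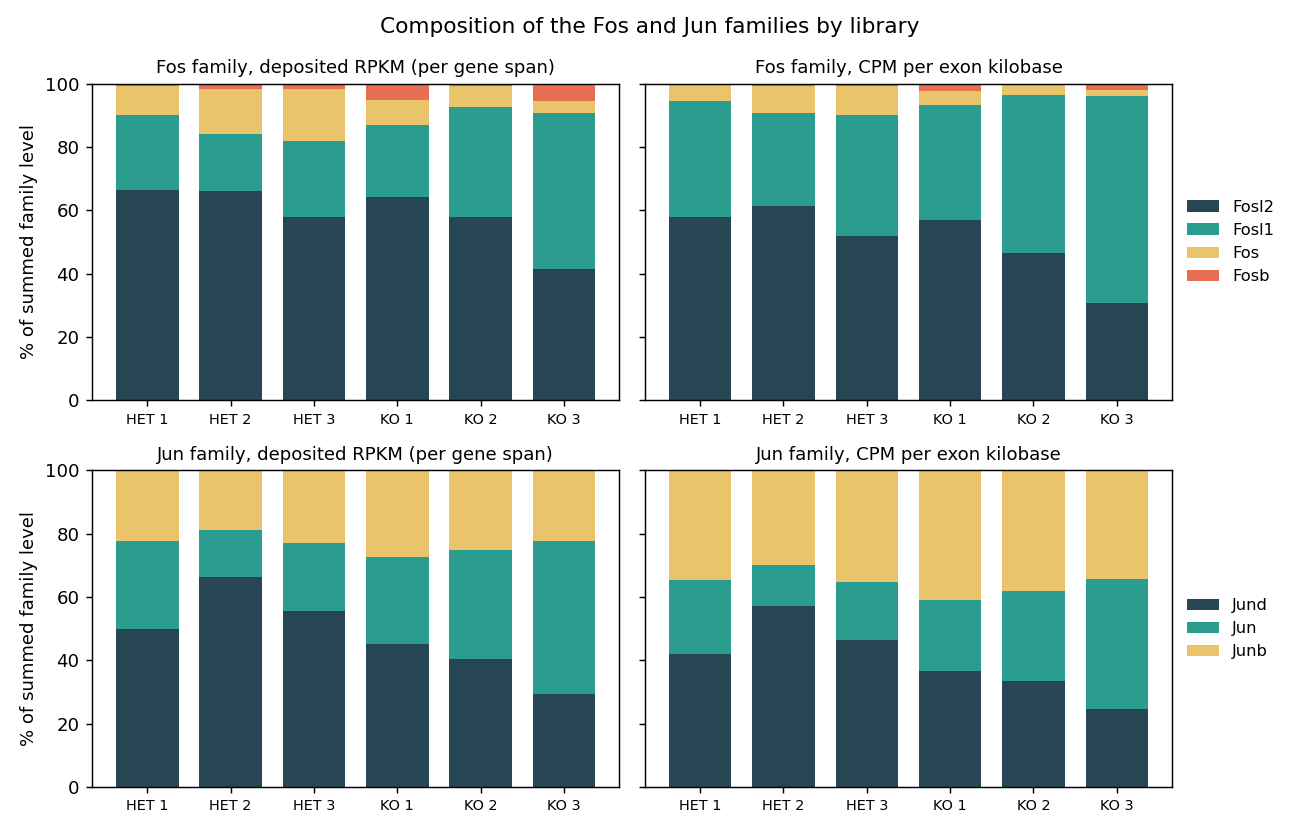
Share of each member in the summed level of its family (y axis, percent) in each of the 6 libraries (x axis), on the deposited RPKM scale (left) and per kilobase of exons (right). Fosl2 and Fosl1 fill most of every Fos bar, and Jund is smallest and Jun largest in KO replicate 3.

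Of the other subunits that pair with or compete for AP-1 sites, 10 of 15 listed were tested and none passed edgeR's adjusted threshold. Their fitted changes were below 0 in 7 and above 0 in 3, with a median of -0.35 (log2), beside 8634 below and 8950 above and a median of 0.01 over all genes. Only Maf and Jdp2, both lower, were at an unadjusted edgeR p under 0.05, where 4.29% of all genes were lower and 4.3% higher. Maf, a large Maf factor with an activation domain, stood at 51.6, 81.9 and 54.8 CPM in HET and at 15.9, 9.12 and 17.3 CPM in KO (log2 fold change -2.15 ± 0.34, edgeR adjusted p = 0.579, DESeq2 adjusted p = 7.6e-05). Jdp2, a repressor that dimerises with Jun, stood at 93.1, 78.1 and 65.9 CPM in HET and at 27.1, 16.5 and 39.3 CPM in KO (-1.52 ± 0.35, edgeR adjusted p = 0.579, DESeq2 adjusted p = 0.0391). Both were lower in all KO libraries than in any HET library, as was Atf4, while Mafg was higher in all. In the whole list 3 were lower and 1 higher without overlap, where 7.42% and 8.1% of all genes tested were. Mafg, a small Maf, had means of 89.7 ± 14.3 CPM in HET and 120 ± 10.5 CPM in KO. Atf4, the factor of amino acid stress, had 460 ± 75.8 and 346 ± 35.8 CPM.

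Of the other immediate early genes, 41 of 43 were tested, and they went in both directions: 19 higher and 22 lower, with a median of -0.02. At an unadjusted p under 0.05 stood 5 higher and 1 lower, beside 4.3% and 4.29% of all genes. Arc, an early gene best known from neurons, stood at 1.91, 1.34 and 1.10 CPM in HET and at 4.16, 6.64 and 8.80 CPM in KO (2.17 ± 0.44, edgeR adjusted p = 0.579, DESeq2 adjusted p = 0.0028). Nr4a2, an orphan nuclear receptor, stood at 3.12, 10.7 and 11.6 CPM in HET and at 27.9, 34.1 and 46.4 CPM in KO (2.09 ± 0.53, DESeq2 adjusted p = 0.0314). Myc, the growth factor-responsive regulator, had 54.5 ± 19.1 and 135 ± 40.9 CPM, and Socs3, the feedback inhibitor of cytokine receptors, had 53.1 ± 23.2 and 21.4 ± 5.64 CPM. The groups did not overlap for these 4, which were named for their small p, and in the whole list for 6 higher and 1 lower of 41, where 15.5% of all genes did not overlap. The part of the proliferation differences given above in the level of Myc was not tested.

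The upstream kinases and factors, all 25 tested, had 18 higher and 7 lower in KO with a median of 0.08. Only Map2k3, a kinase that activates p38, was at an unadjusted edgeR p under 0.05, where 8.59% of all genes were. The groups did not overlap for 2 of the 25, both higher, where 15.5% of all genes did not overlap. Map2k3 stood at 84.5, 66.0 and 81.7 CPM in HET and at 104, 151 and 131 CPM in KO (0.73 ± 0.22, edgeR adjusted p = 0.579). Mapk14, which encodes p38 alpha, had 80.2 ± 7.12 and 97.8 ± 11.3 CPM. Map2k1, the ERK kinase, had 189 ± 40.6 and 128 ± 43.2 CPM, and its groups overlapped. Rps6ka1, a kinase downstream of ERK, had 4.17 ± 1.24 and 8.77 ± 7.07 CPM, with 16.9 CPM in KO replicate 2.

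None of the 22 textbook AP-1 target genes, all tested, passed edgeR's adjusted threshold. Their fitted changes were above 0 in 15 and below in 7, with a median of 0.55, beside 8950 above and 8634 below over all genes. At an unadjusted p under 0.05 stood 5 higher and 1 lower, where 4.3% of all genes were higher and 4.29% lower. Hbegf, a membrane-bound EGF receptor ligand, stood at 23.9, 31.7 and 43.4 CPM in HET and at 107, 93.7 and 218 CPM in KO (2.08 ± 0.41, edgeR adjusted p = 0.579, DESeq2 adjusted p = 0.0041). Mmp9, a gelatinase, was close to the floor in HET at 0.354, 0.427 and 0.118 CPM and stood at 23.4, 3.93 and 2.18 CPM in KO. Lif, a cytokine of the interleukin 6 family, stood at 9.53, 24.5 and 18.3 CPM in HET and at 48.4, 33.2 and 79.0 CPM in KO. Figf, which encodes VEGF-D and was named for its induction by Fos, stood at 157, 349 and 650 CPM in HET and at 77.9, 57.0 and 11.5 CPM in KO (-2.98 ± 0.83, edgeR adjusted p = 0.579, DESeq2 adjusted p = 0.0239). Hbegf and Lif were highest in KO replicate 3, as Fosl1 and Jun were, and Figf was highest in HET replicate 3 and lowest in KO replicate 3, as Fos was. Mmp9 was instead highest in KO replicate 1. These orders are of 6 libraries and were noted after the values were seen, and no link between these genes was tested.

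**Figure D4:**
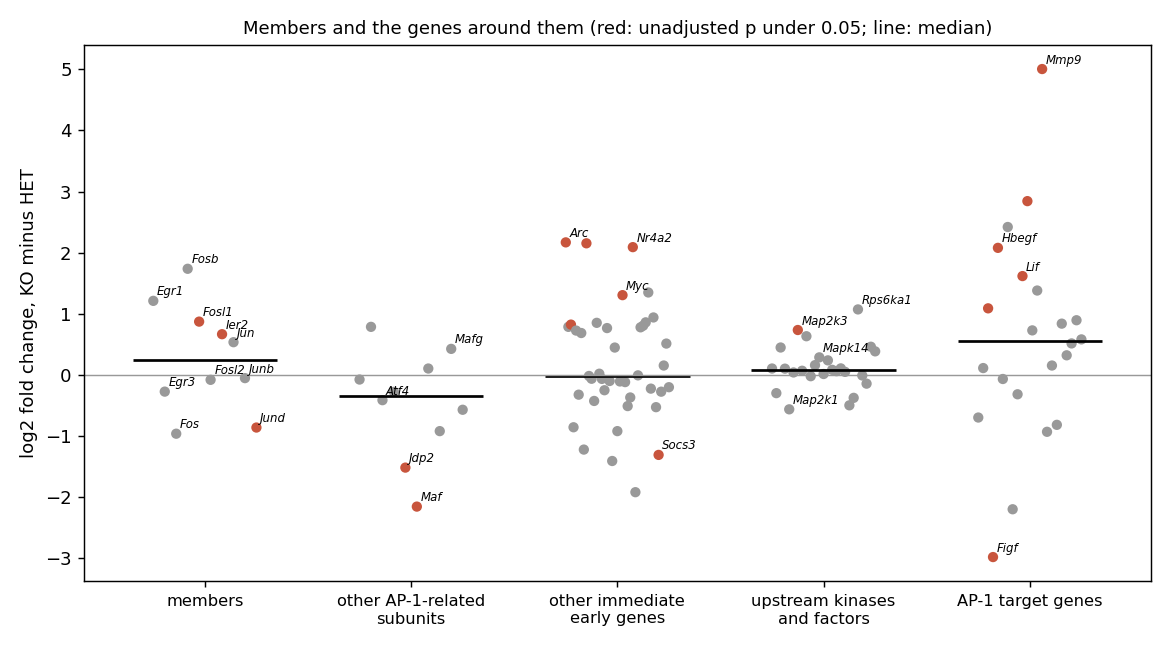
Fitted log2 fold change, KO minus HET (y axis), of the 10 members and of the genes of 4 lists around them (x axis), with red points at an unadjusted p under 0.05 and a black line at each list's median. Medians lie between -0.35 and 0.55, and no point passed the adjusted threshold of edgeR.

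Genes of the most similar pattern were sought among 12240 named protein-coding genes, by the root mean square difference of log2 levels centred on the 6-library mean. For Fos the nearest was Jund (0.16, log2), followed by Iscu, a scaffold for iron-sulfur clusters (0.16), and Stoml1 (0.18). Fos and Jund were thus both high in HET replicates 2 and 3 and lowest in KO replicate 3. For Jun the nearest were Lrpprc, a regulator of mitochondrial RNA (0.11), Pdcd2 (0.14) and Dus4l (0.15). For Egr1 they were Tnc, the matrix protein tenascin C (0.36), Odc1, the first enzyme of polyamine synthesis (0.41), and Lrig1, an inhibitor of EGF receptors (0.41). Tnc stood at 247, 451 and 1025 CPM in HET and at 2410, 697 and 1299 CPM in KO, highest in KO replicate 1 as Egr1 was. Likeness over 6 libraries is a description of the pattern and nothing more.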

How the data were processed

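Per the labels' protocols, RNA was extracted with Trizol and depleted of ribosomal RNA for stranded libraries. Partek, Bowtie2 and cutadapt 1.2.1 are named in the submitters' processing notes, with GRCm38 and mm10 as builds. Neither the annotation nor the way of counting is given in the sources used here. For every gene the authors deposited unscaled estimated counts, together with RPKM values scaled by gene length and library total. Of 48408 rows, 30 with shifted columns were left out, and 7 repeated symbols were summed.

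Estimated counts were rounded, filtered with filterByExpr, scaled by TMM and tested KO against HET over all 6 libraries with the two-sided quasi-likelihood F test of edgeR 4.0.16 (R 4.3.3), with Benjamini-Hochberg adjustment over all 17584 genes and a threshold of 0.05. SE was computed as |log2 fold change|/sqrt(F). Replicate numbers follow accession order and pair no libraries. The test was run on simulated counts with the spread estimated from these libraries. It recovered 4%, 42% and 90% of the genes changed 2-fold, 4-fold and 8-fold, with 5 false calls. The changed genes were drawn from those with a mean above 5 CPM. Recovery at lower levels, such as those of Egr3 and Fosb, was not simulated. A count of 0 past the threshold therefore does not show that nothing changed. Alternatives were other scaling and filters, DESeq2 1.42.0, limma 3.58.1 on voom values, log2(RPKM + 1) or log2(RPKM + 0.1), adding the shared title number to the model, and left-out libraries. Counts of members without overlap by setting and levels per exon length were added after seeing the data. Named genes were all members, the 4 genes of smallest unadjusted p in each list around them, and the 3 most similar genes to Fos, Jun and Egr1. Atf3 and Maff stand on 2 lists. The members and lists were chosen with earlier results of these data known. Positions are from GENCODE M21 (GRCm38). Depth was 24954273 to 42470598 counts, and floors of 3 counts cover counting error only.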

Additional observations from a re-analysis of the deposited data

How the results depend on the processing

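The count of genes past the adjusted threshold was 0 in edgeR and limma under every setting run and 201 in DESeq2, and the count of members was 0 under all settings, DESeq2 included. At an unadjusted p under 0.05 edgeR had 1511 genes, and with single libraries left out from 648 (without HET replicate 2, where no member was among them) to 2281 (without KO replicate 3). Fos, Fosb, Fosl1, Jun, Jund, Egr1 and Ier2 kept their direction under all alternatives. Fosl2 turned to 0.0624 with library size alone and to 0.0202 and 0.0199 on the RPKM scales with 1 and 0.1 added, and ran from -0.33 to 0.044 with single libraries left out. Junb turned to 0.0828, 0.0802 and 0.0856 in the same order and to 0.20 without the pair that shares a title number, and ran from -0.19 to 0.14. Egr3 turned to 0.69 with limma-voom, 0.0326 and 0.41 on the RPKM scales, 0.57 with the term for the shared number and 1.65 without both its libraries, and ran from -0.78 to 1.51. The median change of the members, 0.24, was 0.60 with limma-voom, 0.53 with 0.1 added to RPKM, 0.55 with the term, and 0.083 to 0.75 with single libraries left out. The count of members whose groups did not overlap was 1, where 15.5% of all genes tested did not. It was 2 with library size alone (17.3% of all genes) and on both RPKM scales (17.1%). It was 5 without both libraries of the shared number (43.8%), and 1 to 5 with single libraries left out (19.2% to 33.5%). With fewer libraries, more genes of any kind do not overlap. The mean Fosl1 share of its family was 42.6% per kilobase of exons. With library size alone the median of all genes moved to 0.15, and the genes at an unadjusted p under 0.05 divided into 1200 higher and 532 lower, against 756 and 755. DESeq2 also placed Maf, Jdp2, Arc, Nr4a2, Hbegf, Mmp9 and Figf past its threshold. The cause of these shifts was not tested. No paired analysis was possible because the titles of the groups share only 1 number. Members rested on 13 to about 17050 counts per library, so depth limits chiefly Egr3 and Fosb.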

Other observations

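Ratios within a library do not depend on its scaling. The ratio of Fosl1 to Fos, in deposited RPKM, was 2.55, 1.23 and 1.48 in HET and 2.81, 5.12 and 13.05 in KO. The ratio of Jun to Jund was 0.551, 0.225 and 0.392 in HET and 0.611, 0.858 and 1.66 in KO. The ratio of Egr1 to Fos was 1.35, 0.871 and 3.35 in HET and 11.5, 5.25 and 7.69 in KO. All 3 were higher in every KO library than in any HET library, while the ratio of Jun to Junb overlapped, at 0.786 to 1.23 in HET and 1.01 to 2.19 in KO. The pairs were chosen after their values were seen, and the share of all gene pairs that separate so was not counted. These ratios therefore carry no test. In KO replicate 1, the Fosl1 to Fos and Jun to Jund ratios lay close to those of HET replicate 1.

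Heat shock genes and chaperones also respond quickly to handling of cells. Their summed level, most of it Hspa8 and Hsp90aa1, ran from 2562 CPM in HET replicate 2 to 3519 CPM in KO replicate 3, and of 10 genes 6 were higher and 4 lower in KO, with a median of 0.13 (log2). The stress-inducible Hspa1a stood at 39.3, 36.9 and 81.3 CPM in HET and at 55.3, 18.5 and 23.8 CPM in KO. Hspa1b stood at 70.6, 65.0 and 136 CPM in HET and at 89.6, 33.9 and 29.5 CPM in KO. Both were highest in HET replicate 3, where Egr3 was also highest, and their part in the level of Egr3 was not tested. Malat1 and Neat1, nuclear RNAs, took 0.0485% to 0.127% of counts, lowest in HET replicate 1 and highest in HET replicate 3.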
